A study of Bos taurus with 48 samples.

Results

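Subcutaneous adipose tissue of 6 Norwegian Red heifers on the low-protein low-energy (LPLE) diet was compared between month 7 of gestation and 12 months of age. The libraries were chosen from the sample labels as those with a low protein and a low energy level, and both libraries of a heifer were paired by the heifer number in the label, which gave 12 of the 48 libraries of the series. The heifers labelled 4, 10 and 18 belonged to the high milk-yield (HMY) genetic group and those labelled 8, 14 and 22 to the low clinical mastitis (LCM) group. From 3 months of age until successful breeding at 400 kg body weight was established, LPLE heifers received restricted rations of grass silage mixed with wheat straw and a low-protein concentrate. The 12-month biopsy fell within that period. All heifers of the series then had free access to the same low-energy feed, and the gestation biopsy was taken on that feed, at 20 to 24 months of age over the whole series. Gestation, age and feed therefore changed together between the biopsies and cannot be told apart. The other diets, which enter only as comparisons, were high-protein low-energy (HPLE), low-protein high-energy (LPHE) and high-protein high-energy (HPHE), with 6 heifers each and the same 2 sampling times.

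Adipose tissue stores energy as triacylglycerol in adipocytes. In ruminants these cells are the main site of fatty acid synthesis, which runs from acetate through acetyl-CoA carboxylase (ACACA) and fatty acid synthase (FASN) to the desaturase SCD. Adipocytes also take up fatty acids from circulating lipoproteins and secrete leptin, a hormone that reports the size of fat stores to the brain. In gestation fat is first stored and later mobilised for the fetus and for lactation.

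Between 14815595 and 43367440 reads were counted on genes in the 12-month libraries (median 31689896) and between 32695689 and 47611775 in the gestation libraries (median 44024537). Levels are given as CPM, the count of a gene relative to the total of its library, after TMM scaling, and a log2 fold change is gestation against 12 months from a model with the heifer as block. The false discovery rate (FDR) is adjusted over all 13105 genes tested, and genes with an FDR under 0.1, the threshold of the study, were called. Of the adipocyte markers, CIDEC lay between 814 and 2303 CPM at 12 months and between 1362 and 1898 CPM in gestation, and LEP is described below. The other adipocyte markers and all macrophage, T cell, B cell and endothelial markers had no symbol here and were not analysed. Summed over 6 of 11 skeletal muscle markers, 2 libraries stood apart, with 66.1 CPM in heifer 4 and 34.9 CPM in heifer 8 at 12 months, against 4.13 to 11.9 CPM in the other 12-month libraries and 1.35 to 3.86 CPM in gestation. Every 12-month sum was above every gestation sum. The 2 tested markers, ACTA1 and TNNI2, had log2 fold changes of -3.79 and -1.72. Neither was called, while the alternative test DESeq2 called both lower, where it called 258 of the 13105 genes lower. The myofibre genes MYH2 and MYLPF had medians of 0 CPM in gestation. Smooth muscle markers (3 with a symbol) summed to 83.4 to 2222 CPM at 12 months and 63.3 to 1067 CPM in gestation, and fibroblast markers (2 with a symbol) to 2289 to 6797 and 2521 to 6555 CPM. In multidimensional scaling of the 12 libraries the 12-month library of heifer 8 had the lowest value on the first dimension (-1.31), below all gestation libraries (-0.964 to 0.169), while the other 12-month libraries lay between 0.156 and 1.24. In bulk tissue, fewer cells of a type and less RNA per cell cannot be told apart.

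Of the 13105 genes, 319 (2.43%) were called between gestation and 12 months in LPLE heifers, 214 (1.63%) higher and 105 (0.801%) lower in gestation. The fold changes of the called genes ranged from 0.24 to 4.98 on the log2 scale in either direction, with a median of 0.85, and 129 of them changed at least 2-fold. In 241 of the 319 genes all 6 heifers moved in the same direction. In 66 the 12-month and the gestation levels did not overlap, beside 90 (0.687%) of all 13105 genes tested. The 319 were called on these same libraries, so neither count is independent evidence of a change. The count depended on single heifers. It was 78 without heifer 4, 129 without heifer 18, 148 without heifer 10, 169 without heifer 22, 178 without heifer 14 and 567 without heifer 8. Without heifers 4 and 8, which had the most muscle transcripts at 12 months, it was 93, of which 84 were among the 319. Without the heifer as block it was 42. Scaled by library size alone, 228 genes were higher and 67 lower.

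Over the same period 677 genes (5.17%) were called in HPLE heifers, 5641 (43%) in LPHE heifers and 6040 (46.1%) in HPHE heifers. All 4 diets were fitted in 1 model with 6 heifers each. The median change of a gene, without regard to sign, was 0.13 on the log2 scale in LPLE, 0.14 in HPLE, 0.27 in LPHE and 0.28 in HPHE heifers.

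**Figure D1:**
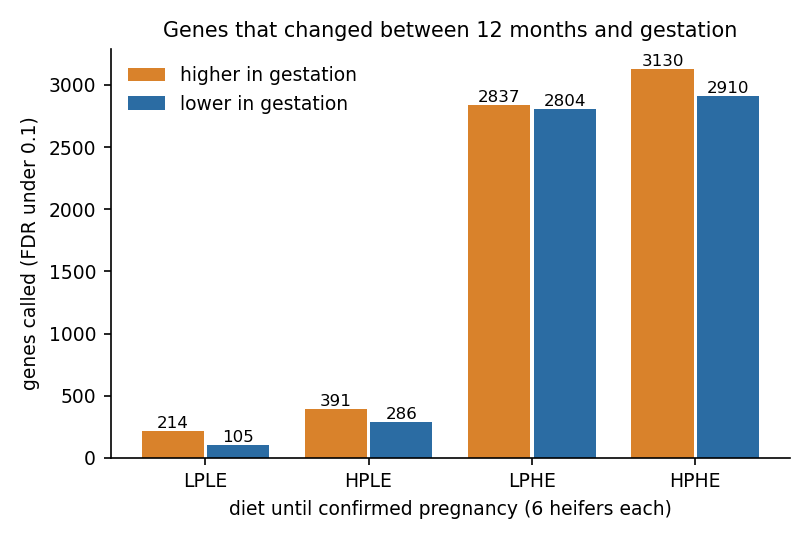
Number of genes called at an FDR under 0.1 between gestation and 12 months, by the diet fed before pregnancy (6 heifers per diet, 13105 genes tested). Orange bars are genes higher and blue bars genes lower in gestation. LPLE had 214 and 105 calls, HPLE 391 (2.98%) and 286 (2.18%), and both high-energy diets between 2804 and 3130 in each direction.

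Only 33 of the 319 called genes are named here, 19 higher and 14 lower, because symbols were used for 1005 genes that the study lists as differing between diets at 12 months. Of the 992 of these that were tested, 3.33% were called, beside the 2.43% of all genes. The study chose these genes on libraries that include the LPLE libraries of 12 months used here, so their direction is not independent evidence of a change. The HPLE heifers had no part in the main contrast behind that list, LPHE against LPLE, but entered smaller contrasts of the study. Their own changes are given beside those of LPLE. All 33 genes had the same sign in HPLE heifers, as had 317 of all 319 calls. Over all 13105 genes the changes of both diets had a Pearson correlation of 0.65, so shared signs are not particular to these genes. In HPLE heifers 18 of the 33 were called, beside 147 of the 319 in the same direction and 5.17% of all genes. Of the 33 genes, 14 were called whichever heifer was left out, namely CDKN2B, CAT, VLDLR, VCAM1, RAB3B, BAIAP2L1, FAM46B, RNASE1, TWIST2, C1QTNF6, CAPN6, NNAT, DDAH1 and TGFB2. The other 19 lost the call without at least 1 heifer. Without heifer 4, 15 of the 33 were called, without heifer 18, 17, without heifers 10 or 14, 19 each, without heifer 22, 22, and without heifer 8, 28.

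Among secreted factors, the gene of leptin, LEP (ENSBTAG00000014911), rose in all 6 heifers. Its level at 12 months was 212, 84.9 and 78.8 CPM in the HMY heifers 4, 10 and 18 and 214, 182 and 279.97 CPM in the LCM heifers 8, 14 and 22. In gestation it was 536, 684 and 426 CPM and 411, 464 and 438 CPM, in the same order. The levels of the sampling times did not overlap, and heifers 10 and 18, the lowest at 12 months, lay among or above the others in gestation. The change was called (log2 fold change 1.61, SE 0.38, FDR 0.0349, exact sign-flip test over 6 pairs, two-sided, p = 0.03125, the smallest p possible). It was called in HPLE heifers as well (log2 fold change 1.28, FDR 0.0774) but not in LPHE heifers, whose median was 518 CPM at 12 months and 476 CPM in gestation (log2 fold change -0.043, FDR 0.939). The LPLE change exceeded that of LPHE by 1.65 on the log2 scale (SE 0.52, FDR 0.0365) and that of HPLE by 0.33 (SE 0.53), which was not called. LEP lost its call when heifer 4, 10 or 18 was left out, the HMY heifers.

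C1QTNF6 (ENSBTAG00000008074), a secreted protein related to adiponectin, had the largest fall among the called genes with a symbol. It went from 98.2 to 546 CPM (median 255) at 12 months to 21.7 to 77.3 CPM (median 46.9) in gestation without overlap (log2 fold change -2.45, SE 0.39, FDR 0.00224). It also fell in HPLE heifers (log2 fold change -1.7, FDR 0.0178). TGFB2, a transforming growth factor, went from 26.8 to 42.7 CPM (median 31.7) to 17.8 to 23.4 CPM (median 21.4), again without overlap (log2 fold change -0.66, SE 0.14, FDR 0.0239). CP, the copper-carrying ferroxidase ceruloplasmin, rose from a median of 14.8 to 48.7 CPM (log2 fold change 1.81, SE 0.46, FDR 0.0553), and RNASE1, a secreted ribonuclease, from 12.5 to 22.8 CPM (log2 fold change 0.77, SE 0.16, FDR 0.0211). Both were called in HPLE heifers too (log2 fold changes 2.19 and 0.82). ISLR, a secreted leucine-rich repeat protein, rose from a median of 114 to 199 CPM (log2 fold change 0.62, SE 0.18, FDR 0.0961). Its rise was larger in LPHE heifers (log2 fold change 1.55), with a difference that was called (FDR 0.0191). IGF2, a fetal growth factor, was lower in gestation in all 6 heifers, with a median of 1725 CPM at 12 months and 1355 CPM in gestation, and did not pass the threshold (FDR 0.124). The likelihood ratio test (FDR 0.0586) and DESeq2 (FDR 0.0463) called it lower.

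Of the genes of fatty acid uptake, 5 of 14 had an identifier and were tested, and 1 was called, beside 2.43% of all genes. VLDLR (ENSBTAG00000018517), a receptor that binds triacylglycerol-rich lipoproteins, was at 28.4, 40.7, 28.6, 42.1, 17.7 and 26.8 CPM in heifers 4, 8, 10, 14, 18 and 22 at 12 months. In gestation the same heifers had 66.5, 81.1, 62.9, 73.8, 45.6 and 45.7 CPM. Every gestation level was above every 12-month level (log2 fold change 1.05, SE 0.19, FDR 0.0111). LPHE heifers had medians of 47.1 and 54.8 CPM (log2 fold change 0.29, FDR 0.257), and the difference of the changes was called (FDR 0.0646). LRP4, another receptor of the lipoprotein receptor family, rose from a median of 28.4 to 40.8 CPM (log2 fold change 0.66, SE 0.19, FDR 0.095), beside 1.16 in HPLE and 1.29 in LPHE heifers on the log2 scale. Neither difference was called (FDR 0.125 against LPHE).

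**Figure D2:**
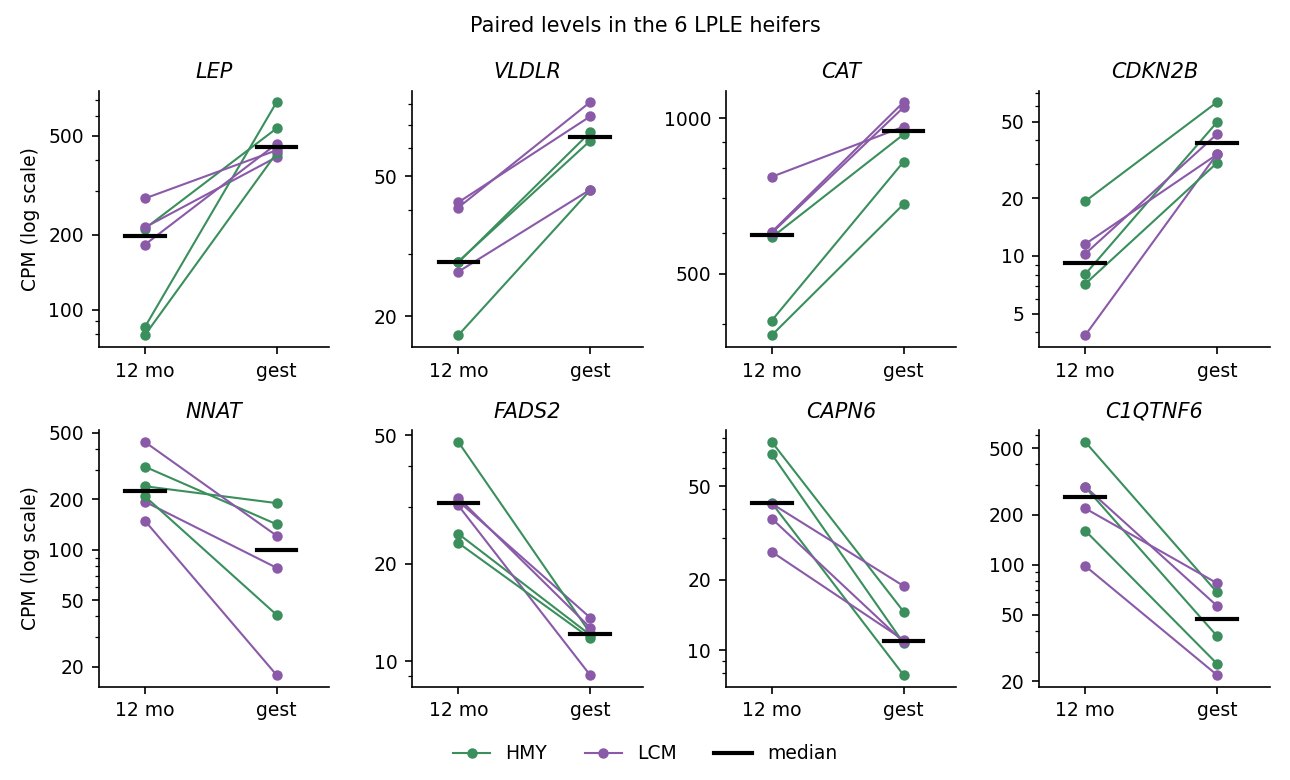
Levels of 8 called genes in the 6 LPLE heifers at 12 months and in gestation, in CPM on log axes, with a line per heifer (green, HMY; purple, LCM) and black bars for the medians of 6 heifers. LEP, VLDLR, CAT and CDKN2B were higher and NNAT, FADS2, CAPN6 and C1QTNF6 lower in gestation in every heifer, and the levels of the sampling times overlap for CAT and NNAT.

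In fatty acid synthesis, 14 of 17 genes were tested and only the desaturase FADS2 was called with the quasi-likelihood test, beside 2.43% of all genes. FADS2 (ENSBTAG00000015505), which makes polyunsaturated fatty acids, was at 24.8, 30.3, 23.2, 31.3, 47.6 and 32.0 CPM in heifers 4, 8, 10, 14, 18 and 22 at 12 months and at 12.1, 9.05, 11.8, 13.6, 12.2 and 12.7 CPM in gestation. All gestation levels were below all 12-month levels (log2 fold change -1.38, SE 0.35, FDR 0.0532). Heifer 18 was the highest at 12 months and lay among the others in gestation. The change in HPLE heifers had the same sign and was not called (log2 fold change -0.73, FDR 0.321).

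Of the other 13 genes of the list 11 had a positive log2 fold change in LPLE heifers and none was called, while every one of them fell in LPHE heifers. FASN was at 7397, 5443, 6995, 7468, 3679 and 10692 CPM in heifers 4, 8, 10, 14, 18 and 22 at 12 months and at 5495, 9833, 10281, 8808, 2706 and 3649 CPM in gestation. It was higher in gestation in heifers 8, 10 and 14 and lower in heifers 4, 18 and 22 (log2 fold change -0.12, SE 0.35, FDR 0.929, exact sign-flip test p = 0.75). In LPHE heifers the median fell from 11781 to 2368 CPM (log2 fold change -2.43, FDR 5.22e-05). Against LPHE, the change of FASN in LPLE was higher by 2.31 on the log2 scale (SE 0.52, FDR 0.00514). SCD had medians of 6622 and 7299.8 CPM in LPLE heifers and of 14032 and 2175 CPM in LPHE heifers, and its change differed by 2.58 (SE 0.62, FDR 0.00843). ACACA was higher in gestation in 5 of 6 LPLE heifers (475 to 1192 CPM (median 1016) at 12 months, 748 to 2217 CPM (median 1365) in gestation) and was not called (FDR 0.531). ACLY, which makes cytosolic acetyl-CoA from citrate, was higher in gestation in 4 of 6 (FDR 0.362), and PGD, an NADPH-producing enzyme of the pentose phosphate pathway, in 6 of 6 (FDR 0.124). PGD was called higher by the likelihood ratio test (FDR 0.0572), by DESeq2 (FDR 0.0354) and with libraries scaled by their size alone (FDR 0.0783).

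Over the 14 genes the median log2 fold change was 0.21 in LPLE, -0.46 in HPLE, -1.92 in LPHE and -2.53 in HPHE heifers, while the medians over all genes lay between -0.016 and 0.030. The direct test against LPHE called 13 of the 14, all with the higher change in LPLE, where 21.7% of all genes were called. The study drew most of these genes from the 12-month contrast of LPHE and LPLE. Neither their sign in LPLE nor their higher change there is independent of that choice. The heifers did not share a direction in the list median. The median difference of the list was 0.85 in heifer 10, 0.66 in heifer 8, 0.65 in heifer 14, -0.05 in heifer 18, -0.46 in heifer 22 and -0.57 in heifer 4. Heifers of both genetic groups lay on either side of 0.

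In triacylglycerol synthesis and lipid droplets, 4 of 15 genes were tested and none was called with the quasi-likelihood test. DESeq2 called PLIN5 higher (FDR 0.0683), where it called 511 of the 13105 genes higher. PLIN5, a lipid droplet coat protein, was at 0.428 to 3.66 CPM (median 0.911) at 12 months and at 1.69 to 7.65 CPM (median 3.08) in gestation, higher in 5 of 6 LPLE heifers (log2 fold change 1.53, SE 0.60, FDR 0.232). It fell in LPHE heifers from a median of 7.62 to 0.728 CPM (log2 fold change -3.19, FDR 0.000388). Cholesterol synthesis had 6 of 24 genes tested and 0 called in LPLE, with a median of 0.18 against -1.64 in LPHE heifers, and all 6 differed from LPHE, beside 21.7% of all genes and with the same selection by the study.

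**Figure D3:**
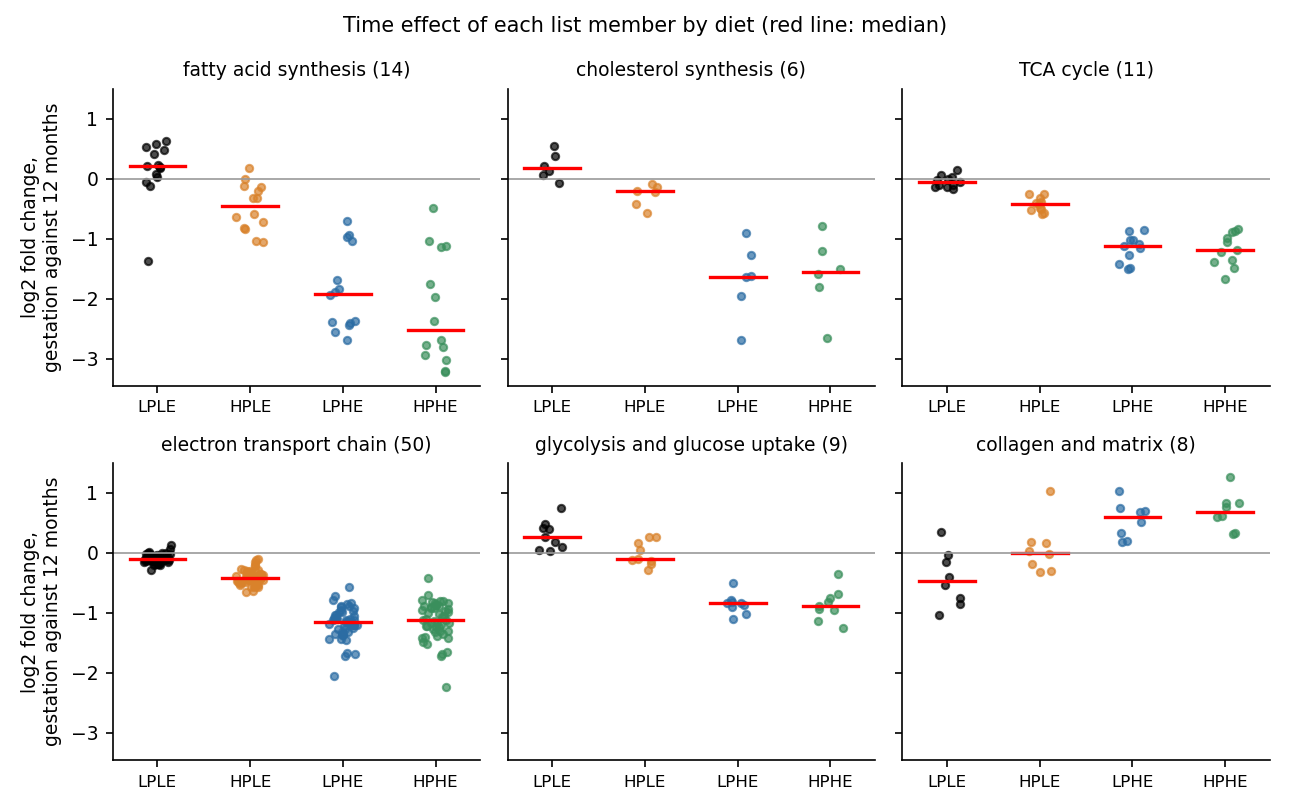
Log2 fold change of each tested list member (points) between gestation and 12 months in LPLE, HPLE, LPHE and HPHE heifers, with the number of members in brackets and the median as a red line. The LPLE medians lie between -0.47 and 0.27 in all 6 lists, while the LPHE medians of the 5 metabolic lists lie between -1.92 and -0.83 and that of collagen and matrix at 0.60.

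In mitochondrial pathways the LPLE heifers showed no called gene. The electron transport chain, which passes electrons to oxygen and drives ATP synthesis, had 50 identifiers for 48 of 71 genes. Their median log2 fold change was -0.096 in LPLE and -1.15 in LPHE heifers, where all 50 were called lower beside 21.4% of all genes. All 50 differed from LPHE in the direct test. In HPLE heifers 9 of the 50 were called lower beside 2.18% of all genes, with a median of -0.41, and none differed between LPLE and HPLE in the direct test. The 11 of 18 tested genes of the TCA cycle, which oxidises acetyl-CoA, had medians of -0.06 in LPLE and -1.13 in LPHE heifers and all differed. Of the 15 of 21 tested genes of branched-chain amino acid breakdown, 14 differed from LPHE (medians -0.034 and -0.99). The counts of differences from LPHE stand beside the 21.7% of all genes, and all these counts carry the same selection by the study. The LPLE heifers differed in the direction of the electron transport chain. Of the 50 identifiers, 0 were higher in gestation in heifer 4, 1 in heifer 18, 15 in heifer 22, 33 in heifer 14, 42 in heifer 10 and 44 in heifer 8.

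Fatty acid oxidation had 9 of 20 genes tested and none called with the quasi-likelihood test. PDK4, a kinase that keeps pyruvate out of the TCA cycle, was lower in gestation in all 6 LPLE heifers, with 130.2 to 318 CPM (median 235) at 12 months and 91.5 to 162 CPM (median 103) in gestation, and missed the threshold (log2 fold change -0.93, SE 0.31, FDR 0.151). The edgeR likelihood ratio test (FDR 0.0699) and DESeq2 (FDR 0.0508) called PDK4 lower. CPT1A, which admits long-chain fatty acids to mitochondria, was lower in 5 of 6 (log2 fold change -0.52, SE 0.19, FDR 0.202). Both rose in LPHE heifers (log2 fold changes 0.94 and 0.82), and both differences were called (FDR 0.00808 and 0.00316). For THEM4, a mitochondrial acyl-CoA thioesterase on no list, the level fell from 12.0 to 26.4 CPM (median 20.9) to 9.32 to 20.6 CPM (median 14.2) (log2 fold change -0.48, SE 0.13, FDR 0.0673). It fell in HPLE heifers too (log2 fold change -0.94, difference not called) and fell further in LPHE heifers (-1.38, FDR of the difference 0.00257).

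Glycolysis and glucose uptake had 9 identifiers for 8 of 17 genes. None was called with the quasi-likelihood test. DESeq2 called 2 of them higher, 1 being GPI (FDR 0.0721), where it called 511 of the 13105 genes higher. All 9 had a positive log2 fold change, beside 6042 of the 13105 genes tested, and each heifer had a positive median, from 0.043 in heifer 22 to 0.39 in heifer 8. The study chose these genes on libraries that include the LPLE libraries of 12 months, so this direction is not independent evidence. GPI, the isomerase of glucose 6-phosphate, was higher in gestation in 6 of 6 heifers, with 252 to 437 CPM (median 298) at 12 months and 328 to 472 CPM (median 437) in gestation (log2 fold change 0.41, SE 0.14, FDR 0.17). Its level fell in LPHE heifers from a median of 609 to 274 CPM (log2 fold change -1.09, FDR 9.47e-06). All 9 identifiers differed from LPHE, beside 21.7% of all genes and with the same selection by the study.

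**Figure D4:**
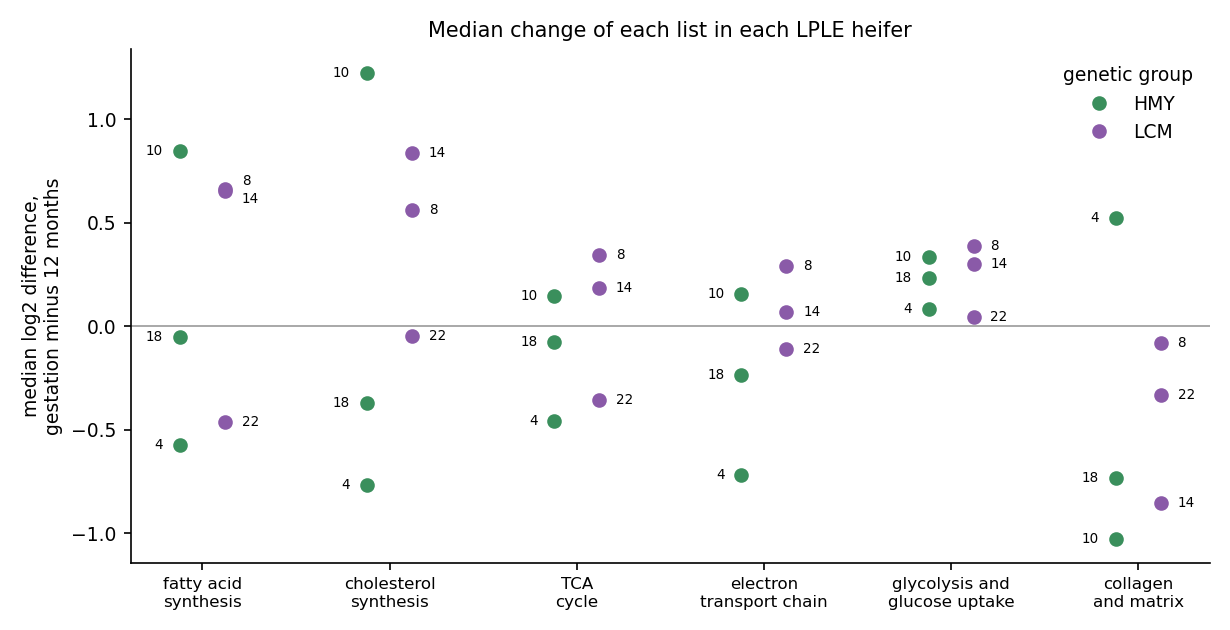
Median difference in log2(CPM + 0.5) between gestation and 12 months over the members of 6 lists in each LPLE heifer, with the heifer number beside each point (green, HMY; purple, LCM). Fatty acid synthesis spans -0.57 in heifer 4 to 0.85 in heifer 10, glycolysis is above 0 in all 6 heifers, and collagen and matrix is below 0 in 5 of 6.

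Antioxidant genes had 17 identifiers tested for 16 of 25 genes, with 1 called higher and 1 lower, beside 1.63% and 0.801% of all genes. CAT (ENSBTAG00000020980), the peroxisomal catalase that breaks down hydrogen peroxide, was at 380.3, 603, 588, 599.8, 406 and 771 CPM in heifers 4, 8, 10, 14, 18 and 22 at 12 months and at 682, 1075, 931, 1050.4, 824 and 964 CPM in gestation. It rose in every heifer, although the highest 12-month level, in heifer 22, was above the lowest gestation level, in heifer 4 (log2 fold change 0.75, SE 0.12, FDR 0.00224). CAT was also called in HPLE heifers (log2 fold change 0.40, FDR 0.0687), and its rise exceeded that of LPHE by 0.58 (FDR 0.0218). GPX7, a peroxidase of the endoplasmic reticulum, fell in all 6 heifers from a median of 75.4 to 37.2 CPM (log2 fold change -0.80, SE 0.22, FDR 0.0732). The median of the list was 0.11 in LPLE and -0.81 in LPHE heifers, and 16 of the 17 identifiers differed, beside 21.7% of all genes and with the same selection by the study.

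For collagen and matrix, 8 of 27 genes were tested and none was called with the quasi-likelihood test. DESeq2 called 1 lower, where it called 258 of the 13105 genes lower. COL1A2, a chain of the fibrillar collagen type I, was lower in gestation in all 6 heifers, with 10534, 9259, 23153, 26107, 30717 and 18088 CPM at 12 months in heifers 4, 8, 10, 14, 18 and 22 and 10476, 8743, 7851, 10788, 11029 and 11415 CPM in gestation. The level hardly moved in heifers 4 and 8, which were the lowest at 12 months, and the change was not called (log2 fold change -0.85, SE 0.34, FDR 0.237). Over the list the median was -0.47 in LPLE, 0.0075 in HPLE and 0.60 in LPHE heifers. The direct test called the change of 3 of the 8 genes lower in LPLE than in LPHE, where 8.91% of all genes were lower. With libraries scaled by their size alone it called 7 of the 8, where 2599 of the 13105 genes were lower. These genes carry the selection by the study too.

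Among regulators of the cell cycle and of transcription, CDKN2B (ENSBTAG00000016412), an inhibitor of cyclin-dependent kinases, had the largest rise of the called genes with a symbol. Its level at 12 months was 19.2, 3.86, 8.03, 10.3, 7.15 and 11.5 CPM in heifers 4, 8, 10, 14, 18 and 22 and in gestation 63.1, 33.9, 49.7, 43.1, 30.5 and 33.7 CPM. The levels did not overlap (log2 fold change 2.19, SE 0.29, FDR 0.000692). It rose in HPLE heifers (log2 fold change 1.52, FDR 0.00704) and was not called in LPHE heifers, whose median was 31.1 CPM at 12 months and 28.8 CPM in gestation (log2 fold change 0.044). The LPLE change was higher than that of LPHE by 2.15 (SE 0.40, FDR 0.00166).

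The transcription factors NFIL3 (log2 fold change 1.07, SE 0.27, FDR 0.0536) and TWIST2 (log2 fold change 0.74, SE 0.16, FDR 0.0275) rose in 5 of 6 heifers each (exact sign-flip test p = 0.0625). NFIL3, a repressor tied to the circadian clock, was lower in gestation in heifer 8, and TWIST2, which acts in mesenchymal cells, was about level in heifer 18. KLF11 fell in all 6 heifers, from 83.9 to 198 CPM (median 138) to 64.8 to 95.7 CPM (median 72.9) (log2 fold change -0.77, SE 0.21, FDR 0.0783), and rose in LPHE heifers from a median of 65.7 to 164 CPM (log2 fold change 1.16, FDR 0.000322). The changes of the diets differed (-1.93 on the log2 scale, FDR 0.00121). PLAGL1, an imprinted zinc finger gene, fell by a small amount in all 6 heifers (log2 fold change -0.35, SE 0.097, FDR 0.0783). SCML1, a polycomb-related gene, fell from a median of 5.95 to 3.44 CPM (FDR 0.0211) and CAPRIN2, an RNA-binding protein, from 13.6 to 8.64 CPM (FDR 0.0737).

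NNAT (ENSBTAG00000003212), the imprinted gene of neuronatin, a small protein of the endoplasmic reticulum, fell in all 6 heifers. It was at 314, 149, 239.96, 194, 209 and 442 CPM in heifers 4, 8, 10, 14, 18 and 22 at 12 months and at 142, 17.9, 190.3, 78.1, 40.9 and 122 CPM in gestation. Heifer 10 moved least and heifer 8 most, and the ranges overlapped (log2 fold change -1.67, SE 0.32, FDR 0.0127). The fall in HPLE heifers was called too (log2 fold change -2.05, FDR 0.0012), from a median of 311 to 85.9 CPM. LPHE heifers were already at 78.6 CPM at 12 months and had 65.0 CPM in gestation (log2 fold change -0.41, FDR 0.312), and the change of LPLE was lower by 1.26 on the log2 scale (FDR 0.0575).

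CAPN6 (ENSBTAG00000000828), a member of the calpain family without protease activity, fell from 42.4, 26.3, 68.4, 36.4, 77.2 and 42.1 CPM at 12 months in heifers 4, 8, 10, 14, 18 and 22 to 7.86, 11.1, 10.7, 10.9, 14.6 and 18.8 CPM in gestation. The levels did not overlap (log2 fold change -1.94, SE 0.30, FDR 0.00224), and the fall differed from LPHE, where the log2 fold change was 0.14 (FDR of the difference 0.00282). DDAH1, which degrades an inhibitor of nitric oxide synthesis, was spread from 8.25 to 94.9 CPM at 12 months and narrowed to 4.32 to 9.54 CPM in gestation (log2 fold change -2.11, SE 0.45, FDR 0.0213). The highest 12-month levels were those of heifers 8 and 22. GPR162, an orphan receptor, fell from a median of 10.7 to 2.69 CPM (log2 fold change -2.01, SE 0.49, FDR 0.0419). FAM186B, of little known function, was low throughout and fell from 5.85 to 3.78 CPM (FDR 0.0279).

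The other genes that rose act at the cell surface, in the cytoskeleton, in vesicles or on RNA. VCAM1, an adhesion molecule for leukocytes, rose from 64.8 to 153 CPM (median 108) to 120.2 to 319 CPM (median 231) in all 6 heifers (log2 fold change 1.08, SE 0.19, FDR 0.00581) and was called in HPLE and LPHE heifers as well. GPNMB, a glycoprotein of lysosomes and macrophages, rose from 49.98 to 126 CPM (median 98.6) to 133 to 299 CPM (median 206) without overlap (log2 fold change 1.18, SE 0.34, FDR 0.0892), with a log2 fold change of 2.11 in LPHE heifers. Heifers 4 and 10 had the smallest rises. RAB3B, a GTPase of vesicle traffic, rose without overlap from 23.9 to 72.5 CPM in the median (log2 fold change 1.71, SE 0.33, FDR 0.015). BAIAP2L1, an adaptor between membrane and actin, rose from 2.01 to 5.33 CPM (median 4.83) to 9.78 to 16.5 CPM (median 12.3) (log2 fold change 1.6, SE 0.32, FDR 0.0176), and WWC1, of the Hippo pathway, from a median of 2.74 to 10.6 CPM (log2 fold change 1.81, SE 0.51, FDR 0.0887). FAM46B, an RNA polymerase that adds poly(A), rose without overlap from 17.7 to 34.3 CPM (log2 fold change 1.07, SE 0.19, FDR 0.00581).

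Smaller rises were those of TAGLN2, an actin-binding protein (median 500.4 to 716 CPM, FDR 0.0404), of FNTB, the beta subunit of farnesyltransferase (29.1 to 37.0 CPM, FDR 0.0705), and of EEPD1 (108 to 158 CPM, FDR 0.0887, higher in 5 of 6 heifers). TAGLN2 and FNTB fell in LPHE heifers (log2 fold changes -0.33 and -0.26) and rose in HPLE heifers (0.45 and 0.38).

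**Figure D5:**
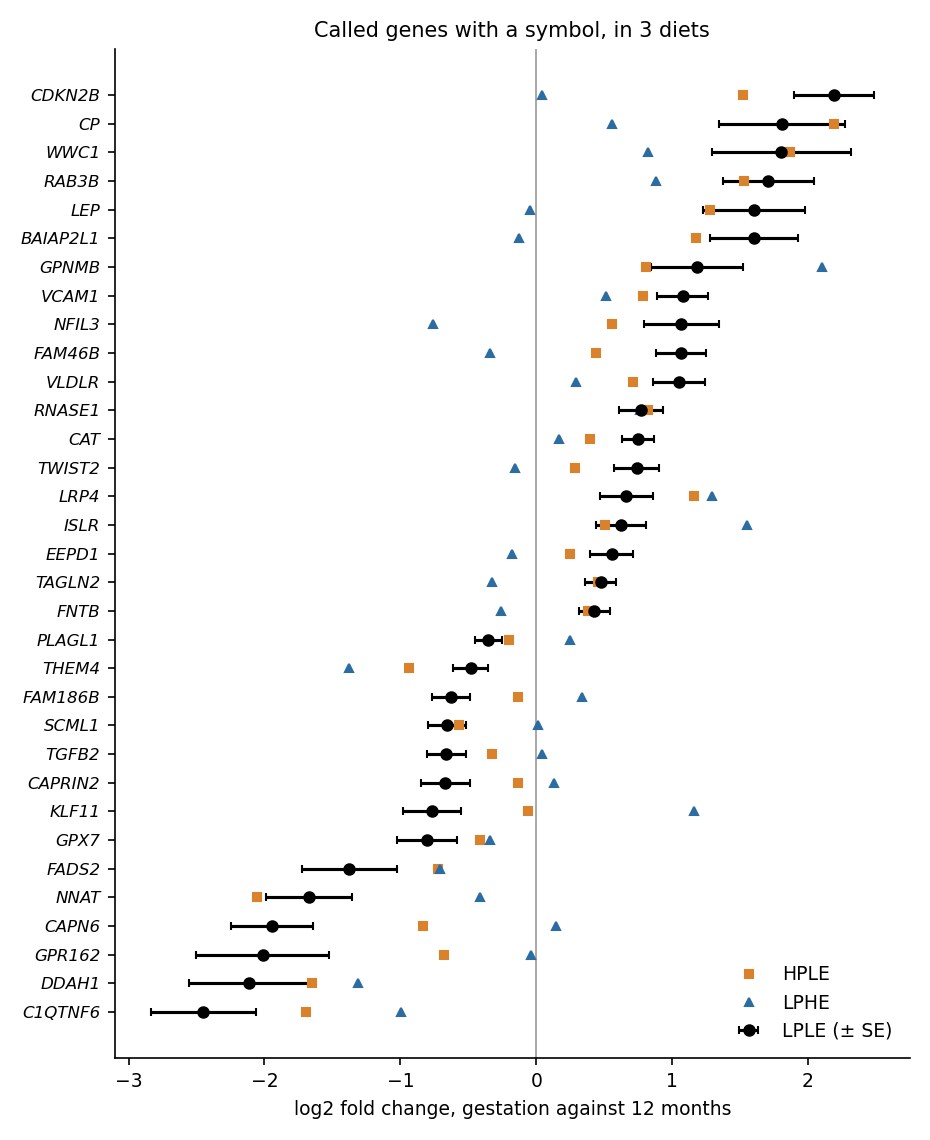
Log2 fold change between gestation and 12 months of the 33 called genes with a symbol in LPLE heifers (black, with SE), beside HPLE (orange squares) and LPHE heifers (blue triangles), 6 heifers per diet. All 33 HPLE values have the sign of the LPLE value, and 15 LPHE values have the opposite sign. Of all 319 called genes, 317 had the same sign in HPLE and 266 in LPHE heifers. The 33 carry the selection by the study.

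The remaining 286 called genes, 195 higher and 91 lower, are not named by symbol here. Those with the smallest p among them moved alike in all diets. ENSBTAG00000003515 rose from 2.75 to 7.08 CPM (median 4.53) to 7.24 to 112 CPM (median 29.5) (log2 fold change 2.76, SE 0.30, FDR 3.13e-05), with log2 fold changes of 3.48 in HPLE, 3.30 in LPHE and 2.81 in HPHE heifers. ENSBTAG00000011851 rose in all 6 heifers by 0.62 on the log2 scale. ENSBTAG00000025021 fell from a median of 3.78 to 0.688 CPM (log2 fold change -2.42, SE 0.36, FDR 0.00224) and ENSBTAG00000033441 from 5.69 to 2.31 CPM (log2 fold change -1.33, SE 0.20, FDR 0.00224). Both fell by more than 1.3 on the log2 scale in every other diet.

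The time effect of LPLE heifers was then tested directly against that of the other diets. Against HPLE, which shared the energy level, 0 of 13105 genes differed with the edgeR quasi-likelihood test (0%, lowest FDR 0.999), 353 had an unadjusted p under 0.05, and the edgeR likelihood ratio test and DESeq2 also called 0. This does not show that the diets acted alike, because single differences were measured with SE values such as 0.53 for LEP and 0.50 for FASN, whose difference was 0.93 on the log2 scale. Of the 319 LPLE calls, 317 had the same sign in HPLE heifers and 147 were called there in the same direction, which is 46.1% of the LPLE and 21.7% of the HPLE calls. None was called in the opposite direction. Across the 13105 genes the log2 fold changes of LPLE and HPLE heifers had a Pearson correlation of 0.65, against 0.34 for LPLE and LPHE and 0.24 for LPLE and HPHE. These are descriptions across genes of 1 fit, and genes are not independent replicates.

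Against LPHE, which shared the protein level, 2844 genes (21.7%) differed, 1676 (12.8%) with a higher and 1168 (8.91%) with a lower change in LPLE heifers. Scaled by library size alone, which shifted the median difference of all genes from -0.043 to -0.19, 1146 were higher and 2599 lower. Of the 319 genes called in LPLE, 188 were called in the same direction in LPHE (58.9% of the LPLE and 3.33% of the LPHE calls), 10 in the opposite direction, and 82 differed in the direct test. Among the 33 named genes 23 differed from LPHE, and 6 were called in the opposite direction there. The 33 are named because the study listed them as differing between diets, mainly between LPHE and LPLE. The counts of 23 and 6 are therefore not independent evidence and do not stand for all 319 calls. Of the 319, 25.7% differed from LPHE, beside 21.7% of all genes. Against the mean of the 3 other diets 2461 genes (18.8%) differed, 1410 (10.8%) higher and 1051 (8.02%) lower in LPLE, and 1067 higher and 1850 lower with library size alone. Without heifer 10 this count fell to 1275. Of the 319 genes, 98 were called in the same direction in all 4 diets.

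Of 15 genes that the study describes for its diet contrasts at 12 months, mostly of energy level, 1 rose (BAIAP2L1) and 1 fell (NNAT) in LPLE heifers. Of all genes tested, 1.63% were called higher and 0.801% lower. Of the 15 genes 10 differed from LPHE, where 21.7% of all genes did, 9 of them with the higher change in LPLE, where 12.8% of all genes had it. The study chose the 15 genes on libraries that include the LPLE libraries of 12 months, so this is not independent evidence. S100B, a calcium-binding protein, was at 78.9 to 185 CPM (median 133) at 12 months and 99.99 to 263 CPM (median 192) in gestation in LPLE heifers (FDR 0.389), and fell from a median of 445 to 149.96 CPM in LPHE heifers. TDH, threonine dehydrogenase, which is not among the 15, had medians of 5.36 and 7.93 CPM in LPLE (FDR 0.456) and of 42.3 and 4.08 CPM in LPHE heifers. Both differences were called (FDR 0.00182 and 0.00128), and the gestation medians of the diets lay closer together than those of 12 months. PRLR, the prolactin receptor, was lower in gestation in all 6 LPLE heifers (1.65 to 7.95 CPM (median 4.2) and 0.447 to 2.86 CPM (median 2.05)) and was not called (FDR 0.469). Its log2 fold change was -1.2 in LPLE, 1.17 in HPLE, 0.33 in LPHE and 2.41 in HPHE heifers. PRLR is among 4 of 20 tested genes of hormone receptors and insulin signalling, none of which was called. None was called either among the 2 tested interferon-stimulated genes, the 2 tested clock genes and the 1 tested adipogenic transcription factor, and no gene of the lists for lipolysis, immediate early genes and the cell cycle had a symbol.

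Whether the 3 HMY and the 3 LCM heifers changed alike was tested within the 12 LPLE libraries. No gene differed with the quasi-likelihood test (0%, lowest FDR 0.166), while 2025 had an unadjusted p under 0.05, the edgeR likelihood ratio test called 662 and DESeq2 called 779. With a separate time effect for each genetic group in the model of all diets, the HMY heifers had 812 called genes and the LCM heifers 18. Each genetic group held 1 of the 2 12-month libraries with the most muscle transcripts. For LEP the rise was larger in the HMY heifers by 1.3 on the log2 scale, and for GPNMB it was smaller by 1.44, and neither was called (FDR 0.228 and 0.176).

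The heifers differed in how far they moved. The median size of the log2 difference over all 13105 genes was 0.31 in heifer 4, 0.29 in heifer 8, 0.28 in heifer 10, 0.23 in heifer 22, 0.20 in heifer 18 and 0.16 in heifer 14. The correlation of a heifer's differences with the mean of the other 5, across genes, was 0.039 in heifer 8 and between 0.28 and 0.49 in the others. Heifer 8 was also the least moved over the 214 genes called higher, with a median of 0.38 against 0.70 to 1.20 in the other heifers, a description only, since these genes were called with it in the fit.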

How the data were processed

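Per the labels, polyadenylated RNA of subcutaneous adipose biopsies was sequenced as paired-end reads, trimmed with cutadapt 1.3 and aligned to the bovine build UMD3.1 with TopHat2 2.0.12, and the authors counted reads per Ensembl gene with HTSeq. The deposited values are raw counts per library. Of the 24616 genes, 13105 that reached 2 CPM in 3 or more of the 12 LPLE libraries were tested, and the 5 rows that name no gene were left out of library sizes and tests. In the LPLE libraries 50.7 to 61.2% of all counted reads lay on genes and up to 25.7% were not uniquely aligned. The 12-month libraries of heifers 4 and 22 had the lowest shares on genes (50.7 and 52%). They also had the highest shares not uniquely aligned (23.7 and 25.7%). The gestation libraries had 56.3 to 61.2% on genes and 13.7 to 18.4% not uniquely aligned. The effect of this difference between the sampling times was not tested.

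The counts of all 48 libraries were fitted with edgeR 4.0.16 in R 4.3.3 (TMM, quasi-likelihood F test), with the heifer as block and a time effect for each diet, and p-values were adjusted over all genes tested (Benjamini-Hochberg). HMY and LCM heifers were compared in the 12 LPLE libraries. DESeq2 1.42.0 and other settings were alternatives. Differences per heifer were taken on log2(CPM + 0.5) and single genes tested with a two-sided exact sign-flip test, which cannot go below 0.03125 with 6 pairs. Pairing follows the heifer number in the labels. The deviations of both libraries of a heifer correlated at 0.0777 to 0.548, against a median of -0.0828 for libraries of different heifers, and 4 of 6 heifers matched their own library best. Replicates are separate animals.

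The rule for named genes took members of pathway lists, the called genes with the smallest p or the largest change, and those with the smallest p for each difference, where they had a symbol. In addition all 33 called genes with a symbol and 4 without one are named, a choice made after their values were seen. The members, lists and tests were chosen with earlier results of these data known. Symbols came from the study's gene tables (1005 genes used, and 1 item is not reported here), and genes without one are given by identifier. A test on simulated counts preceded the fits. The 48 libraries were spread at random over 12 lanes. The lane of each library and the strand setting of the counting were not given in the sources used here, so counts of overlapping genes may be affected. In the LPLE libraries 0.958 to 1.3% of all counted reads were ambiguous between genes and entered no gene count. The authors' own comparison tables were not used for values.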

Additional observations from a re-analysis of the deposited data

Results flagged for a closer look

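The time effect of LPLE heifers differed from the mean of the other diets at 2461 genes and from that of LPHE heifers at 2844 genes, with the test of the difference itself. Among the 51 genes examined, 37 differed from the mean of the other diets, beside 18.8% of all genes. The rule for named genes took some of them for a small p in these same tests. Most also carry the selection by the study, so the count of 37 is not independent evidence. Values are differences of log2 fold changes, LPLE minus the mean of the other diets. Of the genes of lipid and energy metabolism and of the energy-level genes that were not called in LPLE itself, the differences were 2.17 for ACACA, 2.12 for FASN, 2.07 for ACLY, 2.16 for SCD, 1.24 for PGD, 3.78 for PLIN5, 1.13 for GPI, 3.53 for TDH and 1.33 for S100B. Genes called higher in LPLE, and THEM4, which fell less than in the other diets, gave 0.51 for TAGLN2, 0.73 for THEM4, 0.46 for FNTB, 0.63 for VCAM1, 1.37 for LEP, 1.69 for CDKN2B, 1.4 for NFIL3, 1.31 for FAM46B, 0.83 for VLDLR, 0.65 for EEPD1, 1.34 for BAIAP2L1, 0.55 for CAT and 0.78 for TWIST2. Genes called lower in LPLE, and LRP4, which rose less than in the other diets, gave -1.81 for CAPN6, -0.53 for TGFB2, -1.42 for C1QTNF6, -0.63 for LRP4, -0.43 for SCML1, -0.83 for FAM186B, -0.84 for CAPRIN2, -0.45 for PLAGL1, -1.88 for GPR162 and -1.71 for KLF11. Genes not called in LPLE gave -1.05 for CPT1A, -1.66 for PDK4, -0.56 for IGF2, -2.50 for PRLR and -1.0 for COL1A2.

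A heifer stood far from the other 5 in 10 of the 102 groups of 6 examined (Dixon's test on CPM, critical value 0.625). Chance gives about 1 in 20 only for normally distributed values. CPM need not be so distributed, and no excess over chance is read from this count. At 12 months heifer 4 was the highest for WWC1 (11.4 CPM, next 3.81) and PLIN5 (3.66 CPM, next 1.4), heifer 18 for FADS2 (47.6 CPM, next 32.0) and TWIST2 (27.0 CPM, next 17.5), and heifer 8 for ACLY (655 CPM, next 245). In gestation heifer 4 was the lowest for FNTB (23.1 CPM, next 35.7) and the highest for FAM46B (64.3 CPM, next 37.3). Heifer 10 was the highest in gestation for EEPD1 (256 CPM, next 169.7), and heifer 22 for SCML1 (4.27 CPM, next 3.6) and GPX7 (50.7 CPM, next 39.2).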

How the results depend on the processing

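The count of 319 genes in LPLE heifers was 551 with the likelihood ratio test and 769 with DESeq2, both of which held all 319. It was 119 in the 12 LPLE libraries alone (81 shared), 148 at an FDR under 0.05, 812 within the HMY heifers, 18 within the LCM heifers and 78 to 567 without a single heifer. Without heifers 4 and 8, a setting chosen after seeing the data, it was 93. For the difference from the mean of the other diets 2461 became 1504 at an FDR under 0.05 and 1275 to 2522 without a single heifer. For the difference from LPHE 2844 became 1811 at an FDR under 0.05 and 1955 to 3001 without a heifer. For HMY against LCM 0 became 662 with the likelihood ratio test, 779 with DESeq2 and 0 to 3 without a heifer. The difference from HPLE was 0 in all alternatives run. The causes were not tested.

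Both libraries of a heifer were paired by the block. With no replicate block the counts were 42 in LPLE, 1381 against the mean of the other diets and 1600 against LPHE, and 20 of the 37 called genes named lost their call. FASN changed sign without heifer 22, with a range of -0.31 to 0.16 on the log2 scale over the heifers left out. SCD did so without heifer 8 (-0.062), 10 (-0.048) and 14 (-0.14), with a range of -0.14 to 0.26, and within HMY heifers (-0.27). Neither was called under any of these. The median of no gene list turned its sign under another scaling, but some did when a heifer was left out. Without heifer 4 that of the electron transport chain went from -0.096 to 0.052 and that of the TCA cycle from -0.060 to 0.053. Without heifer 22 the TCA cycle had 0.023. Depth was lowest in heifer 22 at 12 months (14815595 counts), and thinning all libraries to that depth kept 46 of the 51 genes examined on their side of the threshold.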
